A study of Mus musculus with 10 samples.

Results

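Gene expression is described in the 5 control tumours of a series of 10 mouse mammary tumours. They were chosen by their sample titles (Control-1 to Control-5) and are called tumours 1 to 5 here. The tumours were grown orthotopically, that is in the mammary gland, in FVB/N hosts from the cell line MCa-M3C, which derives from a mammary tumour of a mouse. At a volume of about 100 mm3 they were assigned to a group, and the controls then received phosphate-buffered saline (PBS) into the retro-orbital vein once a day over 6 days. The other 5 tumours, given an angiotensin receptor blocker (valsartan in its TMA-ARB form), were not used. The labels name no engineered allele, age or sex. All tumours came from 1 cell line, and the labels do not say whether each library came from its own mouse, so the spread between libraries may be partly technical. Polyadenylated RNA was read from whole tumours, so each library mixes tumour cells with stroma, vessels and immune cells.

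A mammary carcinoma holds epithelial tumour cells that can take on a mesenchymal state, with keratins, E-cadherin and claudins low and vimentin, fibronectin and the Zeb, Snail and Twist factors high. Around them lie fibroblasts that lay down collagen, endothelial and mural cells of vessels, and leukocytes, of which macrophages are often the most abundant. Matrix metalloproteinases (Mmp genes) cut collagen and other matrix proteins. Granzymes are serine proteases stored with perforin in the granules of cytotoxic lymphocytes, and osteoclasts are multinucleated cells of the macrophage lineage that resorb bone with cathepsin K and acid.

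Counts were given for 37882 genes, and the library totals ran from 14266136 to 16884621. Levels are CPM, counts divided by the library total on a common scale, after TMM scaling, which corrects library totals for a few dominant genes. Of all genes, 12072 (31.9%) reached 1 CPM in every tumour and 15740 (41.6%) had 0 counts in all 5. Among protein-coding genes these shares were 53.9% and 23.8%. A library's 3 counts, the limit that a count of 0 allows, equal 0.178 to 0.221 CPM, for counting error only. Genes encoded in the mitochondrion held a share of all counts of 2.15% and 2.07% in tumours 1 and 2, 6.37% and 6.63% in tumours 3 and 4, and 3.75% in tumour 5. The first principal component of log2 CPM, with 47.4% of the variance, also placed tumours 1 and 2 (scores 42.7 and 53.5) away from tumours 3 and 4 (-40.7 and -56.8), with tumour 5 at 1.32. Differences below that set tumours 1 and 2 apart from tumours 3 and 4 therefore run along with the mitochondrial share, and its part in them was not tested.

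The genes of highest CPM encoded the translation factor Eef1a1, mitochondrial respiratory chain subunits, actins and the proteins of a motile, mesenchymal cell. Eef1a1 averaged 9593 ± 1542 CPM (SD, n = 5), mt-Co1 9469.8 ± 4745, Actb 7548 ± 841, Tmsb4x (thymosin beta-4) 5464 ± 1351, Vim (vimentin) 5329 ± 881 and S100a6 5216 ± 1914 CPM. Lgals1, Fth1, Tpt1, Igfbp4, Actg1, mt-Co2, mt-Co3, mt-Atp6 and Il1rl1 filled the other places among the first 15 protein-coding genes. Eef1a1, Actg1, S100a4 and these mitochondrial genes have near-identical copies or overlapping gene models, so their counts are uncertain. Expression was spread over many genes: 638 protein-coding genes made up 50% of the protein-coding counts, 117 averaged at least 1000 CPM and 1811 at least 100 CPM.

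A receptor gene stood among these housekeeping and cytoskeletal genes. Il1rl1, which encodes ST2, the receptor of interleukin 33, ranked 13 among protein-coding genes, with 3858, 4113, 2627, 3108 and 3791 CPM in tumours 1 to 5. It lies on chromosome 1, from 40429570 to 40465415 (mm10), and no near-identical copy was found. Tumours 3 and 4 held the lower values, and no tumour was low. Per kilobase of exon, the scale on which different genes can be compared, Il1rl1 stood at 508 CPM per kilobase and ranked 101. Related genes were read for comparison after its values had been seen. Il1rap, the co-receptor, stood at 5.71 CPM per kilobase and Il33, the ligand, at 1.17, and the adjacent gene Il18r1 at 0.261.

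Per kilobase the order of genes moved towards short transcripts. The mitochondrial mt-Co2 led at 12105 CPM per kilobase, before mt-Co3 at 8538 and mt-Co1 at 6129. The leading nuclear genes were Lgals1 (galectin-1) at 4761, Tmsb4x at 3985, Eef1a1 at 3848, S100a6 at 3816, Actb at 2817 and S100a4 at 2734 CPM per kilobase. This order depends on the length used. Per kilobase of the longest transcript, S100a6 stood at 6661, Tmsb4x at 6324, Lgals1 at 5374 and Eef1a1 at 5347. The ribosomal protein genes Rpl41 and Rps15 also fell among the first 15.

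**Figure D1:**
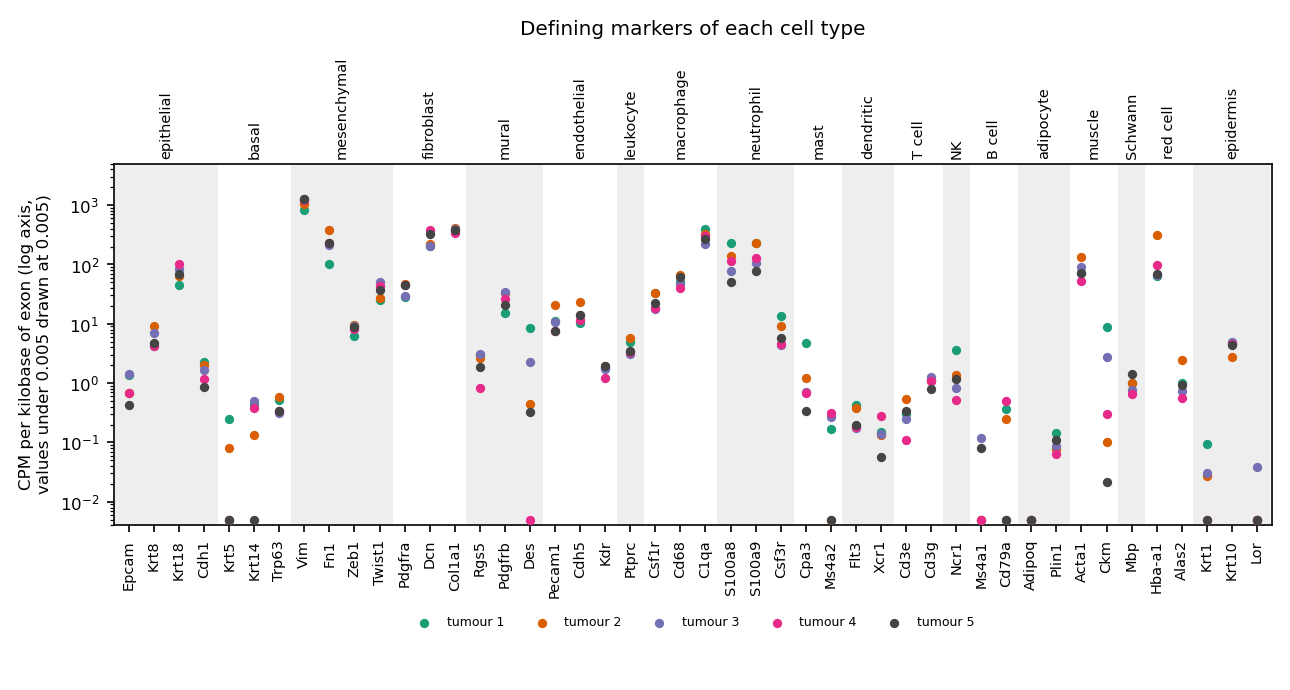
CPM per kilobase of exon (log axis) for the defining markers of each cell type, with a point for each of the 5 tumours. Values under 0.005 are drawn at 0.005; Vim, Dcn, Col1a1 and C1qa lie high in all 5 tumours, Epcam and Cdh1 low, and Adipoq at 0.

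The tumours were poor in the genes of an epithelium. Of 29 luminal epithelial genes, 8 (27.6%) reached 1 CPM in every tumour, against 53.9% of all protein-coding genes. Epcam, the epithelial adhesion molecule, had 3.06, 1.48, 3.17, 1.47 and 0.951 CPM in tumours 1 to 5, and Cdh1, E-cadherin, had 10.4, 9.18, 7.61, 5.45 and 3.93 CPM. Both stayed low in all 5, and the tight junction genes Cldn3, Cldn4 and Cldn7 and the epithelial splicing factor gene Esrp1 were lower still. Cldn3 averaged 0.0792 CPM, Cldn7 0.0269, Cldn4 0.0135 and Esrp1 0.0127 CPM. Another claudin, Cldn1, averaged 76.8 ± 20.3 CPM. Of the luminal list, Cd24a, a surface glycoprotein that other cells share, averaged 106 ± 18.6 CPM, and Jup, plakoglobin, 26.5 ± 6.55 CPM. Krt18, the keratin of simple epithelia, had 64.2, 93.5, 120.1, 147 and 98.4 CPM, while its usual filament partner Krt8 had 8.42, 17.8, 13.6, 8.24 and 9.45 CPM. Per kilobase Krt18 stood at 72.8 and Krt8 at 5.87. Krt18 was lowest in tumour 1 and highest in tumour 4, whereas Krt8 was highest in tumour 2. Krt19 ranged from 0 CPM in tumour 1 to 9.90 CPM in tumour 3, a spread above 4-fold, which 7.44% of all measured genes also showed. Of 50 keratin genes in the table, 27 were at 0 in all 5 tumours (background 23.8% of protein-coding genes) and 6 averaged at least 1 CPM.

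Basal keratins were close to absent. Krt5 averaged 0.144 CPM and Krt14 0.504 CPM, while Trp63, the basal transcription factor, had 4.35, 4.86, 2.63, 2.87 and 2.79 CPM. The basal list nevertheless held abundant genes that other cells share: Acta2 (smooth muscle actin) averaged 469 ± 164 CPM, Itga6 112 ± 18.6 and Itgb4 57.3 ± 15.6 CPM. Oxtr, the oxytocin receptor of myoepithelium, was at 0. Milk genes were at or near 0 as well, with Wap, Glycam1 and Csn1s2a at 0 in all 5 tumours and Csn2 at 0.0380 CPM, whereas Mfge8 and Xdh, which macrophages and other cells also express, averaged 296 ± 57.9 and 137 ± 50.8 CPM. By its defining markers the tissue labelled breast tumour was low in epithelial adhesion, basal and milk genes.

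Mesenchymal genes were abundant in every tumour. Of 18 genes on the mesenchymal transition list, 16 reached 1 CPM in all 5 tumours (background 53.9% of protein-coding genes). None of the 16 measured was 4-fold apart (background 7.44%). Vim had 3918, 5033, 5938, 5714 and 6044 CPM, and Fn1, fibronectin, had 1205, 4415, 2459, 2696 and 2688 CPM. S100a4 averaged 1597 ± 357, Sparc 1539 ± 193, Itgb1 1421 ± 343 and Axl 439.8 ± 72.8 CPM. Among the transcription factors, Prrx1 averaged 106 ± 13.6, Zeb1 86.5 ± 14.3, Twist1 59.9 ± 17.1, Zeb2 53.9 ± 8.85, Snai1 52.04 ± 19.8 and Snai2 24.2 ± 6.10 CPM, while Twist2 (0.831 CPM) and Foxc2 (0.110 CPM) were low. Per kilobase Twist1 led these factors at 36.8, before Snai1 at 32.1 and Snai2 at 11.99. In bulk RNA, mesenchymal tumour cells and fibroblasts share these genes, and fewer cells of a type and less RNA per cell cannot be told apart. Fn1 was lowest in tumour 1 and highest in tumour 2, and 9 of the 16 measured members were lowest in tumour 1, as were 22.1% of all measured genes.

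Among 23 growth factor and hormone receptor genes, Fgfr1 and Pdgfra led and the hormone receptors were near 0. Fgfr1 averaged 417 ± 59.6 CPM, Pdgfra 389.6 ± 90.5, Ryk 209 ± 32.9 and Met 149 ± 32.2 CPM. Erbb2, the gene of the HER2 receptor, had 35.3, 36.8, 39.6, 46.6 and 41.8 CPM, a narrow range, and Egfr averaged 30.4 ± 6.59 CPM. Esr1, the oestrogen receptor gene, averaged 2.14 ± 0.621 CPM, and Pgr and Erbb4 were at 0 in all tumours. Mst1r, a receptor tyrosine kinase, was the member with the widest range, at 6.11 CPM in tumour 1 against 0.296 CPM in tumour 2. Per kilobase, Ryk (46.1), Fgfr1 (42.2) and Pdgfra (38.9) stood above Met (19.4), Erbb2 (7.68) and Egfr (2.68). By the longest transcript Fgfr1 (82.7) stood above Ryk (68.0) and Pdgfra (57.0).

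All 16 tumour suppressor genes reached 1 CPM in every tumour (background 53.9% of protein-coding genes). Cdkn2a, which encodes p16Ink4a and p19Arf, had 229.7, 181, 334, 462 and 291 CPM and was the highest of the list both in CPM and per kilobase (256). Trp53 had 109.5, 80.6, 180.4, 124 and 149 CPM, and Rb1 averaged 19.7 ± 4.68 CPM. Cdkn1a, the p53 target p21, ran from 22.1 CPM in tumour 4 to 93.8 CPM in tumour 2, over 4-fold apart. Among oncogenes Cdk4 averaged 449 ± 53.4, Mcl1 364 ± 64.2, Ccnd1 (cyclin D1) 362 ± 96.9 and Nras 194 ± 42.01 CPM. Ccnd1 was lowest in tumour 2 at 211 CPM, and no oncogene of the 20 measured was 4-fold apart (background 7.44%).

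Developmental families were sparse. The Hox genes, which record position along the body axis, reached at most 10.4 ± 3.47 CPM, for Hoxa5. Hoxb4 averaged 3.72 ± 1.65, Hoxd8 3.33 ± 1.10 and Hoxa10 3.02 ± 0.526 CPM, and 0 of 9 Hoxc genes averaged 1 CPM against 5 of 11 Hoxa, 7 of 10 Hoxb and 2 of 8 Hoxd genes. Wnt ligands were led by Wnt5a with 115, 156, 134, 144 and 174 CPM, and 7 of 19 Wnt genes were at 0 (background 23.8% of protein-coding genes).

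Tumour 2 stood apart for genes of cell division and for genes of glycolysis and hypoxia. All 22 mitosis genes were lowest in tumour 2, where 23.7% of all measured genes were lowest. Their summed level was 1809, 974, 1895, 1693 and 1846 CPM in tumours 1 to 5. Without tumour 2 the sums differed 1.13-fold, against 1.95-fold with it. Mki67, the proliferation antigen, had 107, 69.8, 183, 166 and 190.4 CPM and Ube2c, a ubiquitin enzyme of mitotic exit, had 77.1, 38.1, 133, 108 and 109 CPM. Tumours 1, 3, 4 and 5 lay close together for the list, although Mki67 was also lower in tumour 1 than in tumours 3 to 5. Of 22 DNA replication genes, 17 were lowest in tumour 2 and 15 were highest in tumour 1 (background 21.9% highest in tumour 1). Pcna, the polymerase clamp, had 297, 179.8, 297, 281 and 259.9 CPM and Mcm5, a helicase subunit, had 107, 48.2, 47.2, 30.7 and 58.1 CPM, so tumour 4 was the lowest for Mcm5.

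All 21 glycolysis and hypoxia genes were highest in tumour 2, where 25.5% of all measured genes were highest. The list's summed level was 11094, 20049, 10565, 10620.4 and 14275 CPM. Slc2a1, the glucose transporter Glut1, had 325, 1289.8, 499, 412 and 607 CPM and Ndrg1, a hypoxia-induced gene, had 383, 1833, 708, 546 and 722 CPM. Both were lowest in tumour 1 and high in tumour 2 alone. Ldha, lactate dehydrogenase, had 1419, 2099.8, 848, 944 and 1373 CPM, with tumours 3 and 4 low. Adm, which encodes the vessel-dilating peptide adrenomedullin, had 44.2, 254, 97.2, 89.3 and 128 CPM. Pgk1, a glycolytic enzyme gene at 1923, 3299.7, 1626, 1829 and 2557 CPM, shares an identical transcript sequence with a pseudogene, described further on. Adm, Ndrg1 and Pfkfb3, 3 of the 21 members, were at least 4-fold apart (background 7.44%), and Slc2a1 was 3.97-fold apart.

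**Figure D2:**
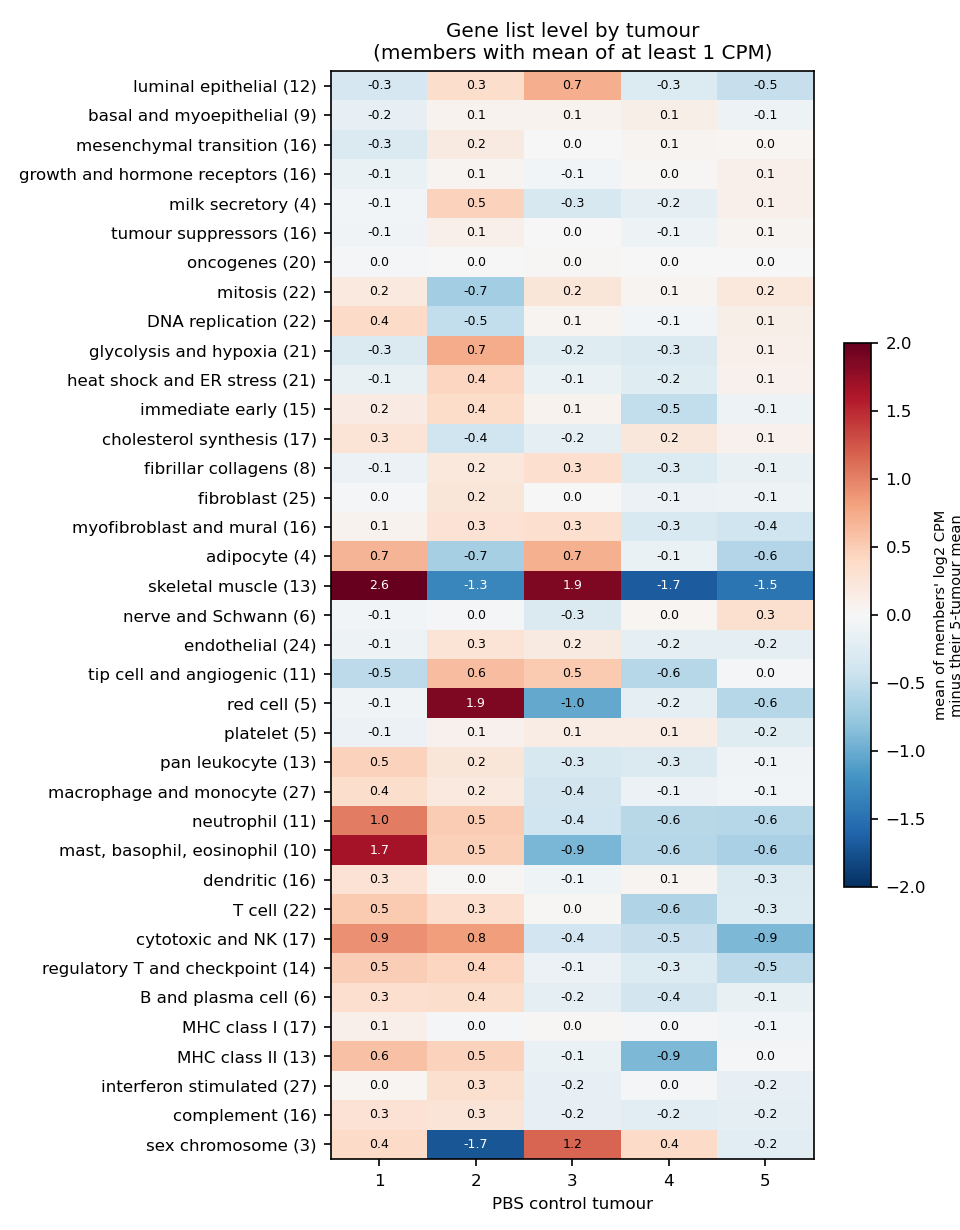
Mean over measured members of log2 CPM minus each member's 5-tumour mean, for every gene list with at least 3 measured members (number in brackets) in tumours 1 to 5, with colours held between -2 and 2. Tumour 2 is low for mitosis and high for glycolysis and hypoxia, tumours 1 and 2 are high for cytotoxic, neutrophil and mast cell genes, and tumours 1 and 3 are high for skeletal muscle.

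The summed levels of stress and sterol genes varied less, 1.18-fold and 1.69-fold, against 1.90-fold for glycolysis and hypoxia. Single members still differed: 3 of 21 stress genes were at least 4-fold apart, and 0 of 17 sterol genes (background 7.44%). Heat shock and endoplasmic reticulum genes summed to between 11435 and 13495 CPM, with Hsp90ab1 at 2381 ± 141, Hsp90b1 at 2129.7 ± 236 and Calr at 1249 ± 73.2 CPM. Atf3 and Hspa1a, which respond quickly to stress, were highest in tumour 2, at 51.4 and 57.4 CPM, and lowest in tumour 4, at 9.72 and 10.4 CPM. Cholesterol synthesis genes were lowest in tumour 2 for 11 of 17 members (background 23.7%), with Sqle, the squalene epoxidase gene, at 109.9, 81.1, 102, 128 and 110.5 CPM. Fosl2, an AP-1 subunit, led the immediate early genes with 159, 325, 250.4, 187 and 238 CPM, and Fosl1 averaged 94.96 ± 28.9 CPM against 38.1 ± 15.97 CPM for Fos.

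The stroma was rich in collagen and in genes of fibroblasts. Col1a1 averaged 2491 ± 205 CPM and was steady, with 2369.5, 2710.1, 2634, 2203 and 2541 CPM, and Col3a1 had 866, 1838, 1154, 1119.9 and 891 CPM. Col1a2, whose product joins that of Col1a1 in type I collagen, had 331, 226, 579, 286 and 391 CPM and was highest in tumour 3 and lowest in tumour 2. Per kilobase Col1a1 stood at 379.6, Col3a1 at 119.6 and Col1a2 at 29.2. Of 44 collagen genes 30 averaged at least 1 CPM, and Col18a1 (888 ± 252 CPM) and Col6a1 (622 ± 211 CPM) followed. Col11a1 was at 0. The integrins that bind this matrix were led by Itgb1 and Itga5, the chains of the fibronectin receptor, with 253, 506, 395, 256 and 232 CPM for Itga5. The integrin genes summed to 2524, 3769, 2460.3, 2419 and 2739 CPM, with tumour 2 highest for 14 of the 24 measured (background 25.5%).

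Of 29 fibroblast genes, 22 reached 1 CPM in all 5 tumours (background 53.9% of protein-coding genes). Dcn, decorin, had 1183, 1268, 1198, 2225 and 1923 CPM and Pdgfra had 285, 470.1, 297, 446 and 450.2 CPM. Dcn was high in tumours 4 and 5, and Pdgfra was low in tumours 1 and 3. Fbln2 averaged 732 ± 268, Cxcl12 299.8 ± 74.9 and Postn 156 ± 78.7 CPM. Other genes of fibroblasts were scarce, with Fap, the fibroblast activation protein, at 0.984 CPM, Dpt at 0.631 and Clec3b at 0.531 CPM, and Lum, lumican, averaged 15.5 CPM. Lox, the collagen crosslinking oxidase, ran from 38.2 CPM in tumour 1 to 162 CPM in tumour 2. In the myofibroblast and mural list, tumour 3 was highest for 7 of 16 measured members, tumour 2 for 6 and tumour 4 for 2. Of all measured genes, 18.4%, 25.5% and 20% were highest in these tumours. Tumours 4 and 5 were each lowest for 5 of the 16, where 21.9% and 10.5% of all measured genes were lowest. The list's summed level, led by Acta2, was 758, 1133, 1487, 1258 and 841 CPM, highest in tumours 3 and 4. The mean of its measured members' log2 CPM, less their 5-tumour mean, was 0.340 in tumour 3 but -0.301 in tumour 4. The contractile genes Acta2 (279, 465, 697, 552 and 353 CPM), Actg2 (28.9, 82.98, 113, 147 and 57.1 CPM) and Myl9 (34.97, 39.8, 80.6, 70.96 and 31.1 CPM) were highest in tumours 3 and 4. Myh11, of mature smooth muscle, averaged 0.433 CPM, and Rgs5 and Notch3 of pericytes 10.3 and 1.10 CPM.

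Skeletal muscle genes were uneven between tumours. The 13 measured skeletal muscle genes included 12 that were at least 4-fold apart between tumours, against 7.44% of all measured genes. Tnni2, a fast troponin, had 31.6, 1.48, 14.95, 8.54 and 3.49 CPM, Ckm, muscle creatine kinase, had 25.9, 0.296, 8.01, 0.883 and 0.0634 CPM, and Mylpf, a fast myosin light chain, had 16.4, 1.07, 10.03, 0 and 1.20 CPM. Tumours 1 and 3 were the 2 highest for these 3 genes. The member below 4-fold, Acta1, had 109, 204, 137, 79.4 and 111 CPM and was highest in tumour 2. Adipocyte genes were close to absent: Adipoq, Lep, Cidec and Ucp1 were at 0 in all tumours and Plin1 averaged 0.448 CPM, while Fabp4, which endothelium and macrophages also express, had 56.4, 42.1, 60.6, 53.4 and 47.2 CPM. Of 14 epidermis and hair genes 7 were at 0 (background 23.8% of protein-coding genes). Krt1 averaged 0.132 CPM, and Krt10 and Sbsn averaged 9.02 ± 1.78 and 9.18 ± 2.19 CPM. The Schwann cell gene Mbp averaged 8.25 CPM.

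Endothelial genes were all present. All 24 endothelial genes reached 1 CPM in every tumour (background 53.9% of protein-coding genes) and none was 4-fold apart (background 7.44%). Their median ratio of highest to lowest tumour, 1.736, was close to the 1.745 of all measured genes. Pecam1 had 69.6, 131, 67.4, 47.9 and 46.4 CPM, Cdh5, VE-cadherin, had 43.7, 97.2, 58.7, 49.03 and 59.9 CPM, and Kdr, the VEGF receptor 2, had 16.5, 17.2, 15.8, 10.97 and 17.6 CPM. Tumour 2 was highest for Pecam1 and Cdh5, and the list was highest in tumour 2 for 11 genes and in tumour 3 for 9, where 25.5% and 18.4% of all measured genes were highest. Flt1 averaged 78.8 ± 14.4, Plvap 65.4 ± 9.78 and Cldn5 63.7 ± 25.1 CPM. Genes of tip cells and angiogenesis spread more: their sum was 199, 637, 333, 232 and 336 CPM, 3.21-fold apart, and 1.69-fold without tumour 2. Angpt2, the vessel-destabilising ligand, had 11.9, 44.8, 11.5, 10.3 and 19.5 CPM, and Pgf, placental growth factor, had 14.2, 102, 35.7, 18.3 and 21.4 CPM. Ccl21a, the chemokine of lymphatic vessels and lymph nodes, had 39.1 CPM in tumour 3 and 0 in the other 4 tumours, and has a near-identical copy (Gm13304) with which counts may be divided. The lymphatic genes Lyve1 and Prox1 averaged 2.46 and 0.443 CPM.

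Red cell genes differed more than vessel genes. Red cell genes summed to 356, 1523, 174, 338 and 224 CPM, 8.76-fold apart, and 2.04-fold without tumour 2. Hbb-bs, a beta-globin gene, had 161, 767, 41.8, 115 and 83.1 CPM. Tumour 2 was highest for all 5 measured members (background 25.5%), and Slc4a1, the anion exchanger of the red cell membrane, was at 0. The platelet genes Pf4 (45.4, 42.9, 36.97, 55.4 and 37.02 CPM) and Ppbp (15.3, 19.5, 17.8, 18.1 and 13.1 CPM) spanned narrow ranges.

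**Figure D3:**
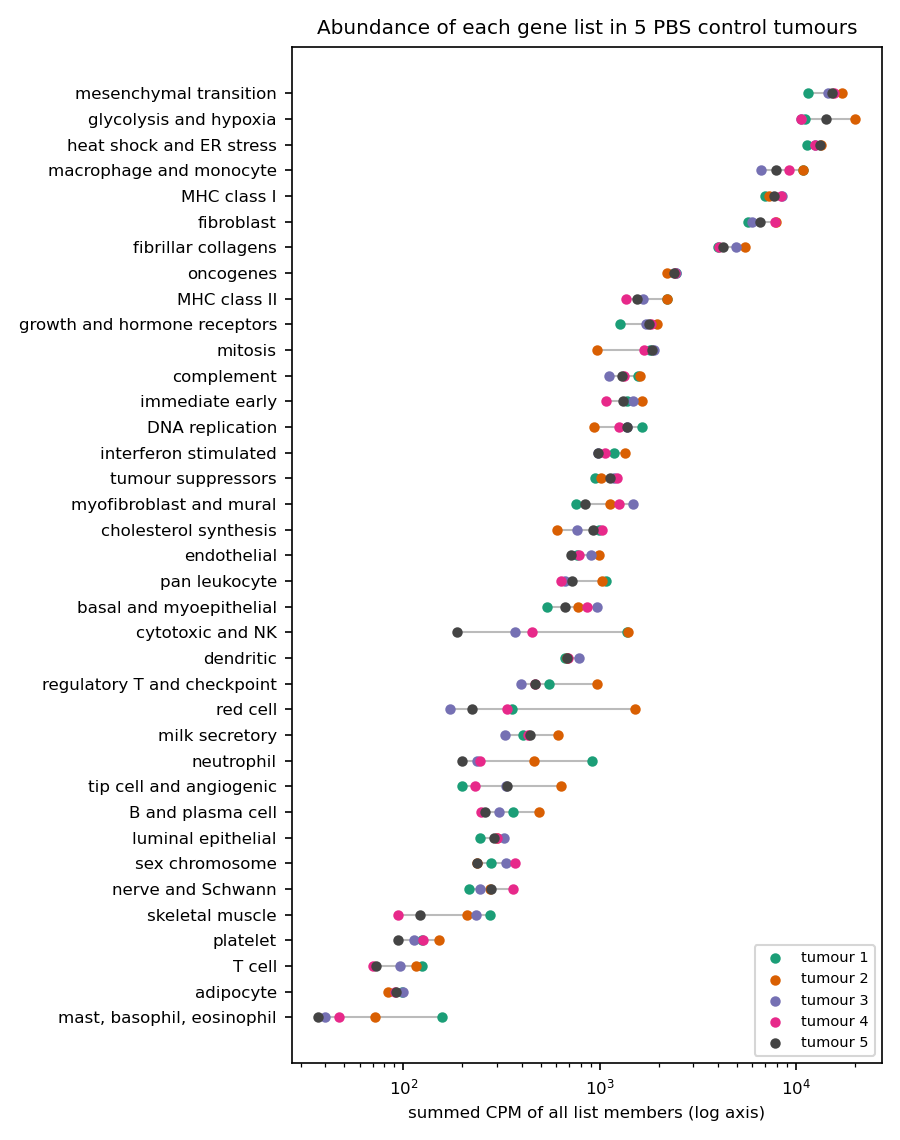
Summed CPM (log axis) of each gene list with at least 3 measured members, a point for each of the 5 tumours and a line from the lowest to the highest. Mesenchymal, glycolysis, stress and macrophage lists lie near 10000 CPM, and the cytotoxic, red cell and neutrophil lists span the widest ranges.

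Of the immune lists, the macrophage and monocyte list had the highest mean summed level, 9112 CPM. Class I antigen presentation followed at 7773 CPM, and in tumour 3 it was the higher, at 8459 CPM. Lists differ in size and gene length, so their sums do not measure cell content. Of 28 macrophage and monocyte genes 26 reached 1 CPM in all 5 tumours (background 53.9% of protein-coding genes). The list summed to 10932, 10869, 6619.7, 9215 and 7923 CPM. Spp1, osteopontin, which carcinoma cells can express too, averaged 2396 ± 487 CPM, and Lyz2, lysozyme, had 2848, 1916, 789.6, 1439 and 1081 CPM. Apoe averaged 1459 ± 302 and Ctsd 972 ± 224 CPM. Csf1r, the receptor of the macrophage growth factor, had 189, 188, 103, 107 and 130.2 CPM, and C1qa, a complement chain made by macrophages, had 416, 333, 228, 308 and 274 CPM. Tumour 1 was highest for 14 of the 27 measured members (background 21.9%) and tumour 3 lowest for 15 (background 21.7% lowest in tumour 3). Of the receptors, Mrc1 averaged 116 ± 12.9 and Trem2 41.1 ± 8.31 CPM, and Cd163 was low at 0.864 CPM. Arg1, arginase, had 178, 192, 106, 86.8 and 118 CPM. Ptprc, the pan-leukocyte marker CD45, had 91.7, 105, 57.6, 61.2 and 63.6 CPM, with tumours 1 and 2 the highest.

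Of 19 dendritic cell genes, 13 (68.4%) reached 1 CPM in every tumour, against 53.9% of all protein-coding genes. The defining markers Flt3 and Xcr1 were low, at 1.68 and 0.677 CPM, as was Clec9a, at 1.10 CPM. The largest members of that list, Tcf4 with 84.4, 105, 245, 221 and 161 CPM and Fscn1 with 144, 157, 195, 112 and 188 CPM, are shared with mesenchymal cells and were highest in tumour 3.

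Chemokine genes were led by Ccl2 and Ccl7, whose products attract monocytes. Ccl2 averaged 352 ± 87.7 and Ccl7 315 ± 96.04 CPM, and Ccl2 was lowest in tumour 2. Cxcl5, whose product attracts neutrophils, averaged 177 ± 60.8 CPM. Per kilobase Ccl7 stood at 393, Ccl2 at 309 and Cxcl12 at 36.7. Of interleukins, Il1b led with 139.6, 93.8, 24.5, 19.8 and 26.2 CPM, high in tumours 1 and 2. At 0 were 10 of 31 interleukin genes (background 23.8% of protein-coding genes).

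Neutrophil genes summed to 916, 465, 236, 245 and 199 CPM, and without tumour 1 the sums differed 2.34-fold in place of 4.59-fold. S100a8 had 158, 95.1, 53.3, 78.7 and 35.6 CPM and Csf3r, the granulocyte growth factor receptor, had 48.6, 32.7, 15.7, 16.2 and 21.2 CPM. The list's largest member, Mmp9, is also made by osteoclasts and is taken up below. Granule genes of immature neutrophils were near 0, with Elane at 0.0147 and Ngp at 0.160 CPM.

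Antigen presentation was steady for class I and less so for class II. H2-D1 averaged 2824 ± 125 CPM, B2m 1864 ± 485 and H2-K1 1083 ± 129.9 CPM. The class I sum ran from 6935 to 8459 CPM, and none of 17 genes was 4-fold apart (background 7.44%). Cd74, the class II invariant chain, had 867, 949.7, 545, 319 and 534 CPM and H2-Aa, a class II chain, had 228, 286, 191, 95.9 and 140.1 CPM. Tumour 4 was lowest and tumours 1 and 2 highest for both. Ciita, the class II master regulator, was also lowest in tumour 4, at 0.368 CPM, and was highest in tumour 1, at 6.66 CPM. Interferon-stimulated genes were all expressed, 27 of 27 at 1 CPM in every tumour (background 53.9% of protein-coding genes). Gbp2, an interferon-induced GTPase, had 217, 294, 92.5, 115 and 164 CPM.

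Defining lymphocyte genes were at low levels. Of 23 T cell genes, 22 averaged at least 1 CPM, as did 12326 of 21226 protein-coding genes. In every tumour 10 of the 23 (43.5%) reached 1 CPM, against 53.9% of all protein-coding genes. The T cell receptor subunit gene Cd3e had 1.22, 2.19, 1.01, 0.442 and 1.39 CPM, Cd3g 3.74, 3.49, 4.18, 3.53 and 2.60 CPM, and Cd8a 1.09, 0.888, 2.09, 3.17 and 1.39 CPM. No tumour stood apart for all of these. Foxp3, of regulatory T cells, averaged 0.611 CPM and Pdcd1, the PD-1 receptor, 2.27 CPM, whereas Cd274, its ligand PD-L1, had 22.6, 36.4, 16.2, 13.5 and 12.8 CPM. B cells were nearly absent by their markers: Ms4a1 averaged 0.250 and Cd79a 0.327 CPM, and 233 of 257 immunoglobulin gene segments were at 0. Sdc1, a plasma cell and epithelial proteoglycan, was at 294 ± 84.9 CPM.

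Tnfrsf9, the costimulatory receptor 4-1BB, was abundant beside these low lymphocyte genes, with 299, 687, 215, 302 and 311 CPM. Tumour 2 was highest, at 687 CPM, and the sum of the checkpoint and regulatory list was 2.45-fold apart with tumour 2 and 1.40-fold without it. Per kilobase Tnfrsf9 stood at 133 and Cd3g at 1.07.

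Granzyme genes were also abundant beside low lymphocyte markers. On chromosome 14, between 55941451 and 56262260, 15 protein-coding genes of mast cell proteases, cathepsin G and granzymes lie in a row, and 11 of the 12 measured were at least 4-fold apart (background 7.44%). Gzmg had 609.8, 558, 123, 185 and 58.2 CPM, Gzmf 414, 461, 114, 137 and 50.8 CPM and Gzmd 386, 377, 97.8, 128 and 39.1 CPM. Gzme had 198, 166, 36.4, 60.2 and 18.4 CPM and Gzmc 160.1, 151, 38.3, 45.5 and 20.7 CPM. Tumours 1 and 2 were the 2 highest and tumour 5 the lowest for these 5 genes. Gzmb, the granzyme of activated cytotoxic T and NK cells, was lower, at 40.5, 60.4, 12.3, 8.10 and 5.90 CPM, and Gzma and Gzmk, encoded elsewhere, averaged 3.41 and 0 CPM. Per kilobase Gzmg stood at 338, Gzmf at 256 and Gzmd at 213, against 17.7 for Gzmb and 1.07 for Cd3g. Prf1, perforin, had 91.5, 101, 4.51, 7.80 and 4.06 CPM, with the same 2 tumours high. The summed level of the locus was 1916, 1824, 431, 582 and 204 CPM, 9.41-fold apart, and 4.43-fold without tumour 5. The NK marker Ncr1 had 5.50, 2.07, 1.28, 0.810 and 1.84 CPM and Klrb1c 1.29, 1.36, 1.62, 2.36 and 1.58 CPM, and the whole T cell list summed to 125, 117, 96.04, 70.2 and 72.8 CPM. The T cell list was highest in tumours 1 and 2 and differed 1.78-fold. T cell receptor gene segments summed to between 9.83 CPM, in tumour 5, and 29.9 CPM, in tumour 1, 3.05-fold apart and 1.84-fold without tumour 1. Fcrl6, a receptor of cytotoxic lymphocytes, had 33.3, 41.5, 1.68, 3.61 and 1.27 CPM, high in tumours 1 and 2, whereas Klrb1c was highest in tumour 4. The part of these cells in the granzyme levels was not tested. Without tumour 5 Gzmd was 3.92-fold apart, below 4-fold, and Gzmg was 4.92-fold apart.

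The mast cell proteases at the start of the locus were high in tumour 1 more than in tumour 2. Mcpt2 had 46.1, 8.53, 1.01, 4.78 and 2.22 CPM, Cma1, mast cell chymase, had 16.8, 4.15, 3.17, 4.93 and 2.98 CPM and Mcpt4 8.01, 4.26, 0.202, 0.515 and 1.01 CPM. Mcpt8, of basophils, had 5.77, 3.79, 3.17, 3.39 and 2.09 CPM and varied less. Cpa3, mast cell carboxypeptidase, had 7.20, 1.84, 1.08, 1.03 and 0.507 CPM, while the receptor subunit Ms4a2 averaged 0.420 CPM. The mast cell, basophil and eosinophil list summed 4.25-fold apart, and 1.95-fold without tumour 1. Ctsg, cathepsin G, which lies between the 2 blocks of genes, sided with the granzymes at 24.4, 28.3, 1.28, 4.71 and 1.71 CPM.

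Since the granzymes of the locus moved together, the promoter windows (250 bases before the start to 50 after it, RefSeq, GRCm38.p6) of the locus were searched, after these values had been seen, for the RUNX core TGTGGT on both strands, and matches to either strand are in capitals. Promoters were found for 13 of the 15 genes. The windows shown are Gzmg (chr14:56159530-56159829), Gzmd (chr14:56132544-56132843) and Gzmb (chr14:56262285-56262584), all on the minus strand and written 5′ to 3′ along the gene.
Gzmg: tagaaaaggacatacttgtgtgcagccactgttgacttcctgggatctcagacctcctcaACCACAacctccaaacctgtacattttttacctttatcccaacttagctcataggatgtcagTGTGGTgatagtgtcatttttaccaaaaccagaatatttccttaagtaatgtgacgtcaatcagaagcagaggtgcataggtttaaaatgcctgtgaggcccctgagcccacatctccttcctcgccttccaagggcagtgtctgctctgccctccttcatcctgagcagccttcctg
Gzmd: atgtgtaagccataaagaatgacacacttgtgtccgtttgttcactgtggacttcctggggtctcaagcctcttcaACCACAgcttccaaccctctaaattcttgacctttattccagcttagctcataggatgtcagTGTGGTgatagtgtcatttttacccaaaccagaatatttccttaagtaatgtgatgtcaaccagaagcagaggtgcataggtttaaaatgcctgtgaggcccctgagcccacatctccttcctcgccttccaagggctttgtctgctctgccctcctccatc
Gzmb: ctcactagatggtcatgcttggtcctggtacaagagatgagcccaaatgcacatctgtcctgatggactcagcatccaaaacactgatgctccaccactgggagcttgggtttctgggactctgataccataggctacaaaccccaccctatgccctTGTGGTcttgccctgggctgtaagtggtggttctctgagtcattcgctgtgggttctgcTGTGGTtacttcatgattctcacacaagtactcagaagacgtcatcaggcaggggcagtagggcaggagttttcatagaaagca
Gzmc, Gzmd, Gzme, Gzmf, Gzmg, Gzmb and Mcpt8 each held 2 matches, so that 7 of the 13 promoters held at least 2, against 1.81% of all 32851 windows of this length. The match nearest the start began at position -112 in Gzmd, -128 in Gzmg and -34 in Gzmb, counted from the RefSeq start site. That start lies 15, 0 and 74 bases from the GENCODE start of these genes, so the positions, that of Gzmb above all, depend on the annotation. The windows are related by sequence: Gzmd and Gzmg were 81.3% identical and Gzmd and Gzme 93.4%, whereas Gzmb and Gzmg were 47.8% identical, so the shared matches of Gzmc to Gzmg are not independent. Their longest transcripts were 90.4% identical between Gzmd and Gzme, below the 95% used to name a near-identical copy, and the division of reads among them is uncertain. A match is a description of the letters only, and its absence says nothing about the factor.

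Another run of neighbouring genes, the Mmp genes, was highest in tumour 2. It was picked out after its values had been seen, as was the granzyme locus. On chromosome 9, between 7272514 and 7699585, 9 matrix metalloproteinase genes lie together, of which 5 were measured at a mean of 1 CPM or more. Mmp13, collagenase 3, had 484, 4109, 1953, 653 and 726 CPM, Mmp3, stromelysin 1, had 429.7, 2784, 964, 666 and 470.0 CPM, Mmp10, stromelysin 2, had 162, 1053, 323, 182 and 370.5 CPM and Mmp12, the macrophage elastase, had 101, 929, 441, 174 and 267 CPM. Tumour 2 was highest for all 4 (background 25.5%), and tumour 1 was lowest for all 4 (background 22.1%). Tumour 3 came next for Mmp13, Mmp3 and Mmp12, and tumour 5 for Mmp10. Mmp8, the neutrophil collagenase, averaged 1.74 ± 0.785 CPM in the same interval, Mmp1b, Mmp27 and Mmp20 stayed below 1 CPM on average, and Mmp7 was at 0. The locus summed to 1178, 8882, 3683, 1676 and 1837 CPM, 7.54-fold apart, and 3.13-fold without tumour 2. Of the other metalloproteinases, Mmp9 on chromosome 2, given below, was 15.5-fold apart and highest in tumour 1. Mmp14, the membrane-bound activator of gelatinase A, had 329, 509, 311, 362 and 289 CPM and Mmp2, gelatinase A itself, had 125, 214, 80.6, 74.4 and 85.8 CPM, with tumour 2 again highest for both. Without tumour 2 Mmp13 was 4.04-fold, Mmp12 4.38-fold, Mmp3 2.25-fold and Mmp10 2.28-fold apart. The macrophage list was highest in tumours 1 and 2, the glycolysis and hypoxia list in tumour 2, and the part of either in the Mmp levels was not tested.

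AP-1, the family of Fos and Jun factors, is a textbook regulator of metalloproteinase promoters, so the windows of the locus were searched for TGACTCA on both strands, with matches in capitals. The windows shown are those of the 4 abundant genes, Mmp13 (chr9:7272264-7272563), Mmp3 (chr9:7445572-7445871), Mmp10 (chr9:7502092-7502391) and Mmp12 (chr9:7344147-7344446), all on the plus strand.
Mmp13: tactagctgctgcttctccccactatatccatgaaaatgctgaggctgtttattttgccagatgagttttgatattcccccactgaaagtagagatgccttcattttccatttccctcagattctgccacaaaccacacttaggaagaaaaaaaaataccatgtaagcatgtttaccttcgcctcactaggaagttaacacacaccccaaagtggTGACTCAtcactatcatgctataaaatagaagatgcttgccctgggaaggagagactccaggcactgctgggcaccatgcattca
Mmp3: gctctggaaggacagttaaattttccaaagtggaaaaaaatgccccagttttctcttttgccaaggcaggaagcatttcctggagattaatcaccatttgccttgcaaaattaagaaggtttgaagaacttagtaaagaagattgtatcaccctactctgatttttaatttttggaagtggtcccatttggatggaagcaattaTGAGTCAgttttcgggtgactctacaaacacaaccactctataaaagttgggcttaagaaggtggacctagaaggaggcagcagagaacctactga
Mmp10: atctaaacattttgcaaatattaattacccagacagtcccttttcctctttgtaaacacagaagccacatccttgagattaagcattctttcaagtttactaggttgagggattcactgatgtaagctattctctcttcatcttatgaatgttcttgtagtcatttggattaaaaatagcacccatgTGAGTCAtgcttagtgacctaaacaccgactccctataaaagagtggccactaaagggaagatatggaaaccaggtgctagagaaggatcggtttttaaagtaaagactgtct
Mmp12: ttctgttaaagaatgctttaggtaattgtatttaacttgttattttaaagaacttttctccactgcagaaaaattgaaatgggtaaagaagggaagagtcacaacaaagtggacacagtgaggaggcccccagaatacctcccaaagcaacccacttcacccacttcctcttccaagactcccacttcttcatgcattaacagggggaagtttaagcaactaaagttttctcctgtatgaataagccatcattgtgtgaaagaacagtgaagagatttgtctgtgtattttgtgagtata
Mmp13, Mmp3 and Mmp10 each held 1 match, beginning at positions -35, -46 and -63 relative to the RefSeq start site, and Mmp12 held none. That start lies 0, 0 and 10 bases from the GENCODE start of these 3 genes. The letters TATAAA began at -16, -7 and -29 in the same windows, and all these positions depend on the annotation. Of the 9 genes of the locus 5 held a match, against 5.20% of all windows. The other 2 with a match were Mmp1b and Mmp7, which were not abundant (Mmp1b 0.884 CPM, Mmp7 0 CPM). The AP-1 subunit gene Jun had 167, 175, 178, 153 and 177 CPM, a narrow range, and Fosl2 was highest in tumour 2. Other subunit genes differed in direction. Junb was highest in tumour 1, at 230 CPM, and Jund was highest in tumour 3, at 261 CPM, and lowest in tumour 2, at 180 CPM. The part of AP-1 in the Mmp levels was not tested.

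Genes known from the osteoclast were highest in tumour 1. The list of 16 genes was drawn up after Ctsk had been seen among the genes of large spread, so its direction is a description. Of the 14 measured members 13 were highest in tumour 1 (background 21.9%) and 9 were at least 4-fold apart (background 7.44%). The exception was Itgb3, an integrin chain, with 46.7, 71.3, 26.4, 27.8 and 20.5 CPM and tumour 2 highest. Ctsk, cathepsin K (chromosome 3, 95499256 to 95509362), had 447, 28.3, 54.1, 19.9 and 64.3 CPM, Acp5, tartrate-resistant acid phosphatase, had 367, 67.7, 109, 68.9 and 112 CPM and Mmp9, gelatinase B, had 356, 29.97, 45.6, 22.5 and 40.3 CPM. Atp6v0d2, a subunit of the osteoclast proton pump, had 33.6, 3.26, 3.77, 3.17 and 5.45 CPM. Dcstamp and Ocstamp, which are needed for cell fusion, had 14.8, 3.97, 4.92, 1.40 and 2.16 and 15.3, 1.84, 2.56, 1.47 and 3.61 CPM. Ckb, brain-type creatine kinase, had 137, 18.1, 26.6, 23.04 and 27.8 CPM. Tumour 1 lay far above the other 4 for each of these. Other members, Clcn7 (37.4, 37.3, 37.1, 34.2 and 31.8 CPM) and Nfatc1 (28.1, 17.5, 15.96, 19.5 and 22.3 CPM), differed by less than 2-fold. So did the osteoclast genes Tcirg1 (1.55-fold) and Tnfrsf11a (1.91-fold). The calcitonin receptor gene Calcr had 1.29 CPM in tumour 1, 0 in tumours 2, 3 and 4 and 0.254 CPM in tumour 5. The list summed to 1722, 405, 477, 351 and 469.8 CPM, 4.91-fold apart, and 1.37-fold without tumour 1. Without tumour 1 Ctsk was 3.19-fold and Mmp9 2.01-fold apart. Genes of bone-forming cells were mixed: Runx2, a transcription factor of the osteoblast, averaged 60.2 ± 19.4 CPM, whereas Ibsp, Sp7 and Alpl were at 0 in all 5 tumours and Dmp1 averaged 0.511 CPM. The receptor of the osteoclast-inducing ligand, Tnfrsf11a, had 27.4, 14.2, 25.7, 16.1 and 25.5 CPM, and the ligand gene Tnfsf11 had 2.92, 0.533, 1.75, 0.0736 and 0.317 CPM, highest in tumour 1.

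**Figure D4:**
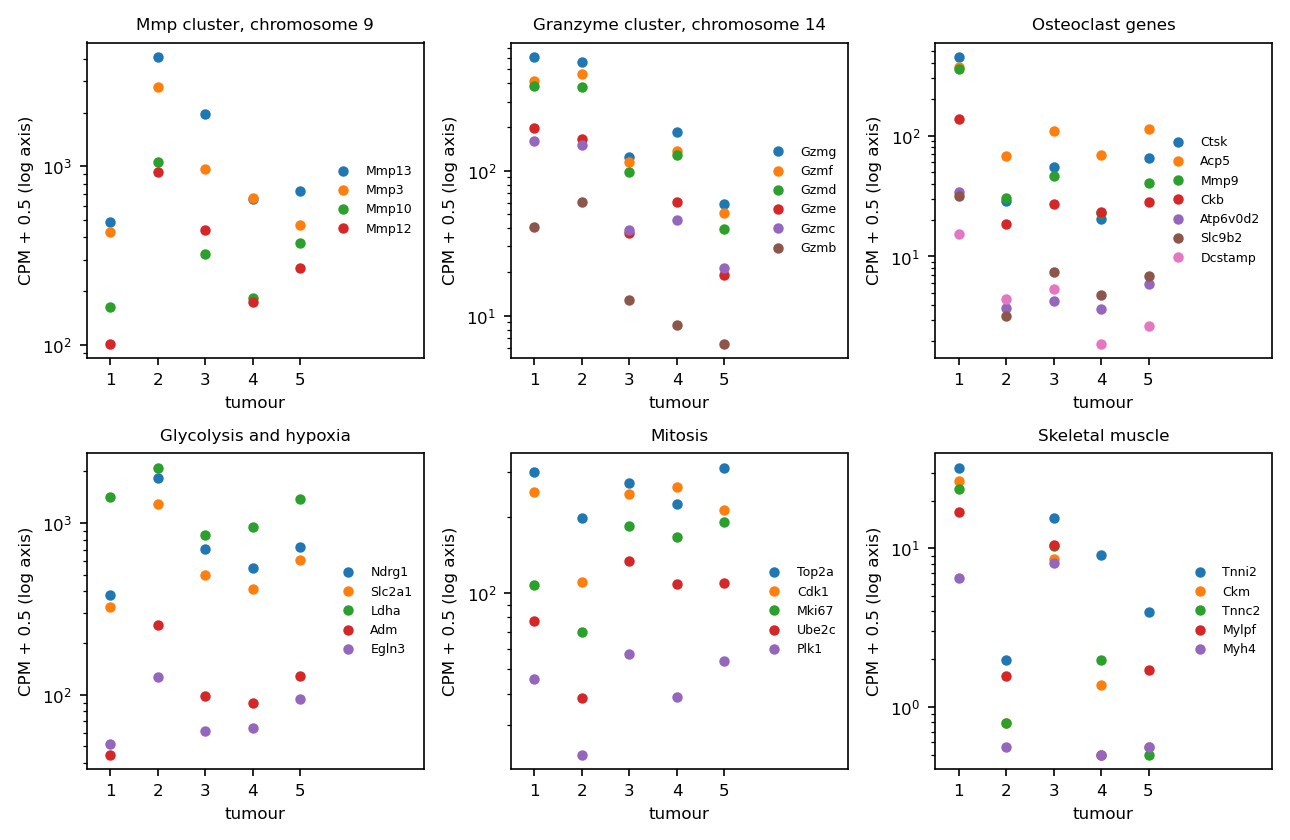
CPM plus 0.5 (log axis) in tumours 1 to 5 for genes of 6 groups. Mmp genes and hypoxia genes are highest and mitosis genes lowest in tumour 2, granzymes are highest in tumours 1 and 2, osteoclast genes in tumour 1 and muscle genes in tumours 1 and 3.

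Across all 13488 genes with a mean of at least 1 CPM, the median gene differed 1.74-fold between its highest and lowest tumour (0.5 CPM added to both). At least 4-fold apart were 1003 genes (7.44%), among protein-coding genes 639 of 12326 (5.18%), and the common coefficient of variation beyond counting error was 0.345. Abundant genes were steadier. Of 1684 protein-coding genes with at least 100 CPM and no near-identical copy, 25 (1.48%) were 4-fold apart. Among all 669 measured genes without a copy that were 4-fold apart, 221 were highest in tumour 2 and 84 lowest in tumour 1. Of the 25, 13 were highest in tumour 2 and 9 lowest in tumour 1 (background 25.5% and 22.1% of all measured genes). Beside the Mmp, granzyme, globin and osteoclast genes already given, they included Csrp1, a LIM protein of actin filaments, with 278, 455, 99.2, 121 and 246 CPM, and Col12a1, a fibril-associated collagen, with 104, 338, 106, 81.9 and 117 CPM. They also included Ctgf, connective tissue growth factor, with 326, 282, 457, 259.6 and 82.98 CPM, lowest in tumour 5, and Angptl7 with 96.4, 150.5, 95.2, 381 and 388 CPM, high in tumours 4 and 5. Zfp575, a zinc finger gene, had 208, 73.03, 470.3, 678 and 212 CPM and was highest in the 2 tumours of high mitochondrial share. Lars2, the mitochondrial leucyl-tRNA synthetase gene, was highest in tumour 4 at 2307 CPM, as was Gm26924, a ribosomal RNA-like gene, at 10573 CPM.

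Genes with a near-identical copy spread more often. Of 1070 measured genes with such a copy (at least 95% identity over at least 50% of the transcript) 31.2% were 4-fold apart, against 5.39% of the 12418 without. Of the 334 genes with a copy that were 4-fold apart, 208 were processed pseudogenes, copies of spliced transcripts inserted in the genome. Of these, 83 were highest in tumour 1 and 63 in tumour 2, and 79 were lowest in tumour 3 and 63 in tumour 4. The 669 genes without a copy that were 4-fold apart leaned the same way. Of those, 174 were highest in tumour 1 and 221 in tumour 2, and 158 were lowest in tumour 3 and 219 in tumour 4. Pgk1-rs7, identical to Pgk1 over its whole length, had 733, 1546, 0.0673, 182 and 116 CPM. Added to Pgk1 it brought the spread of that gene from 2.03-fold to 2.98-fold. Rpl10-ps1 had 437 CPM in tumour 2 and 0 in the other 4, while its parent Rpl10 differed 1.45-fold. Gm10052, a copy of Hnrnpa1, had 109, 131, 0, 0 and 0 CPM, and with it Hnrnpa1 differed 1.32-fold in place of 1.56-fold. The counts of Pgk1-rs7 and Gm10052 were higher in tumours 1 and 2 than in tumours 3 and 4. The mitochondrial share separates the same tumours, and whether the libraries or the cells differ was not tested.

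The 20 protein-coding genes of largest spread (SD of log2 CPM, mean of at least 5 CPM) included 12 with a near-identical copy. Those were Gm10273, Gm20459, Gm20390, Gm4070, Adnp, Srp54a, Ccl21a, Nanp, Ugt1a7c, Tmem254c, Ugt1a9 and Gm20425, and their values are uncertain. Adnp, for one, had 29.1, 16.9, 0.269, 1.10 and 0 CPM, with the overlapping gene model Gm20716 as its copy. The other 8 were Cck, Des, Zbed6, Tnfsf13, Ckm, Tnnc2, Mylpf and Btg3. Cck, the gene of the peptide cholecystokinin (chromosome 9, 121489824 to 121495694), had 12.02, 17.5, 0.0673, 4.93 and 13.6 CPM and was nearly absent in tumour 3 alone (3.31-fold apart without it, 31.7-fold with it). Des, desmin, a muscle filament, had 31.6, 1.66, 8.62, 0 and 1.20 CPM and followed the muscle genes. Tnfsf13, the ligand APRIL, had 15.8, 7.88, 10.6, 0 and 6.53 CPM, with 0 in tumour 4, and shares a locus with Tnfsf12, so that reads may be divided. Btg3 was at 0 in tumour 4 too and had up to 10.8 CPM elsewhere.

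The steadiest genes hardly moved. Psmd11, a proteasome subunit, had 124, 122, 126, 126 and 123 CPM, and Ppp2ca, the catalytic subunit of protein phosphatase 2A, had 307, 304, 312, 320.3 and 323 CPM. Actr10, Znrf1, Wdr33, Hccs, Tbc1d31 and Ccdc28a completed the 8 of smallest spread, with a highest-over-lowest ratio of at most 1.07.

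**Figure D5:**
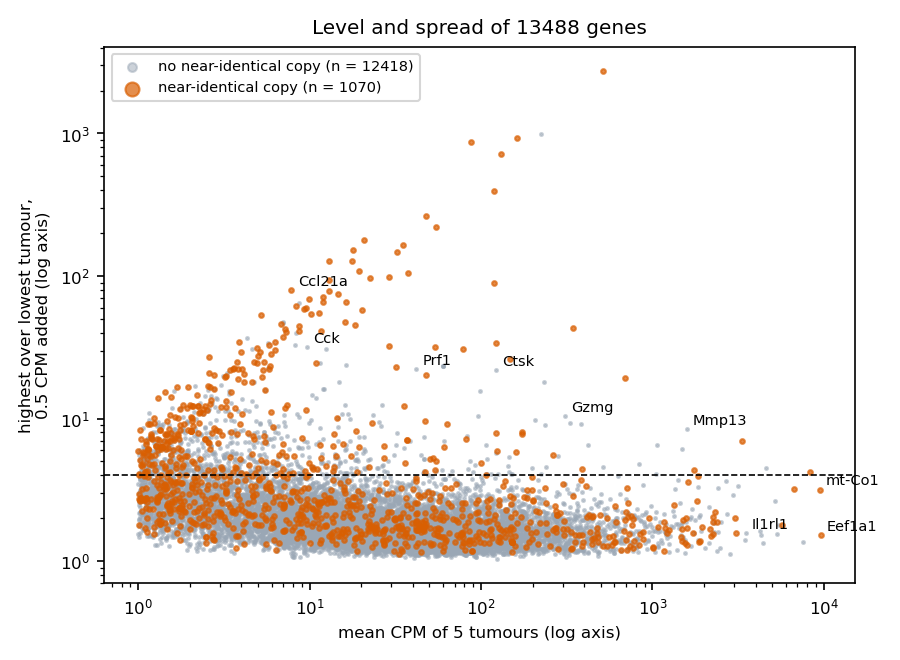
Mean CPM (log axis) against the ratio of highest to lowest tumour (0.5 CPM added, log axis) for 13488 genes, those with a near-identical copy in orange and the 4-fold line dashed. Genes with a copy crowd the upper edge, and Mmp13, Gzmg and Ctsk stand above the line among abundant genes.

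Gene families of other tissues were mostly at 0. Of 1079 olfactory receptor genes 1050 were at 0 in all 5 tumours, as were 298 of 318 vomeronasal receptor genes, 34 of 38 taste receptor genes, 18 of 21 major urinary protein genes of liver, 50 of 55 defensins and 29 of 35 genes of the cornified envelope. For comparison, 23.8% of all protein-coding genes were at 0. Of 18 liver, brain, testis and islet genes, 10 were at 0 and none averaged 1 CPM, among them Alb at 0.0269 CPM, and Ttr, Syt1 and Ins2 at 0.

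Xist was expressed in every tumour, and 2 of the Y-linked genes were detected at a few CPM. Xist, the X inactivation RNA, had 276, 236, 326, 364 and 234 CPM. The Y-linked genes Sry, Zfy1 and Zfy2 were at 0 and Eif2s3y averaged 0.0127 CPM, while Uty had 0.475, 0, 4.65, 3.68 and 0.254 CPM and Kdm5d 3.46, 0.118, 1.82, 0.294 and 1.78 CPM. Uty and Kdm5d have X-linked relatives, with which reads may be shared.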

How the data were processed

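RNA of 5 control tumours was analysed. The authors deposited 1 table of estimated counts per gene, made with Salmon on mm10 per the submitters' processing notes. Its values were whole numbers. The version of Salmon, the annotation, the strand setting and the rounding are not given in the sources used here. Polyadenylated RNA was made into libraries with a strand-marking NEBNext kit, per the labels' protocols. Library totals ran from 14266136 to 16884621, and intervals or floors cover counting error only.

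CPM with TMM scaling, log2 CPM (prior count 2) and the common variation were computed with edgeR 4.0.16 in R 4.3.3, from the controls alone. Relative log expression (RLE) scaling was the alternative, with the size factors of DESeq2 1.42.0 computed beside it. Of 37882 genes 37607 matched GENCODE M21 (mm10), whose merged exons gave the length for CPM per kilobase. The scripts were tested on simulated data. Near-identical copies were sought among transcripts with BLAST+ 2.17.0 (at least 95% identity over at least 50%). With 1 group there is no test between groups and no p-value. A gene was called apart when the highest tumour was at least 4-fold above the lowest, after 0.5 CPM was added to both, among genes with a mean of at least 1 CPM. Promoter windows came from RefSeq (GRCm38.p6).

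The named genes were the 15 of highest CPM and of highest CPM per kilobase, the 20 of largest and the 8 of smallest spread with a mean of at least 5 CPM, the 4 most abundant, the most variable and the absent members of 39 gene lists, the leading member of 43 families, Hox genes and sex-linked genes. Further marker and pathway genes, the Mmp and granzyme loci and the osteoclast genes were picked after their values were seen. The members and lists were chosen with earlier results of these data known. Alternatives changed the scaling, the added CPM, the minimum level, the length measure and the tumours used.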

Additional observations from a re-analysis of the deposited data

Results flagged for a closer look

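For each list, family, group and named gene with a value in every tumour, the gap between the outermost tumour and its neighbour was divided by the whole range, and values above 0.71 (Dixon's 95% limit for 5 samples) are given here. Of 145 such checks 18 passed the limit, and chance alone passes about 1 in 20. The items are not independent and many were chosen for their spread, so the count of 18 cannot be set against that rate.

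The osteoclast list was drawn up after Ctsk had been seen high in tumour 1, so its values and those of its members are a description of that choice. In tumour 1 these genes summed to 1722 CPM, against 351 to 477 CPM in the others. Their members Mmp9 (356 CPM against 22.5 to 45.6), Ckb (137 CPM against 18.1 to 27.8), Tcirg1 (159 CPM against 102 to 113) and Atp6v0d2 (33.6 CPM against 3.17 to 5.45) also lay far above the other 4 tumours, as did the mast cell gene Cma1 (16.8 CPM against 2.98 to 4.93).

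Tumour 2 was far below the others for the summed mitosis genes (974 CPM against 1693 to 1895), the summed oncogenes (2201 CPM against 2393 to 2458) and Lgals1 (3175 CPM against 4422 to 4870.4). It was far above them for the summed integrin subunits (3769 CPM against 2419 to 2739).

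Tumour 3 was high for the summed dendritic list (789.6 CPM against 665 to 693), a sum that Tcf4 and Fscn1 lead, while tumour 1 was highest for 8 of its 16 measured members (background 21.9%). Tumour 3 was also high for Ccl21a (39.1 CPM against 0). It was low for Cck (0.0673 CPM against 4.93 to 17.5) and Gm10273 (0 CPM against 12.4 to 73.7). Tumour 4 had 26.1 CPM of Ugt1a9, which was at 0 in the others. It had 0 CPM of Gm20459 (others 31.8 to 48.4), Tnfsf13 (others 6.53 to 15.8) and Tmem254c (others 3.17 to 10.5). Gm10273, Gm20459, Tmem254c, Ugt1a9 and Ccl21a have near-identical copies, so their counts are uncertain.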

How the results depend on the processing

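The count of genes at least 4-fold apart (1003) changed by more than 1.5 times under 5 alternatives. It was 377 among genes with a mean of at least 5 CPM and 344 with 2 CPM added in place of 0.5. Further alternatives were chosen after seeing the data: it was 639 among protein-coding genes, 391 without tumours 1 and 2 and 347 without tumours 3 and 4, and these last use fewer genes or tumours. Leaving out 1 tumour at a time gave 686 to 963 such genes and a common coefficient of variation from 0.333 to 0.374. With 1 group there was no direction between groups that could reverse. Of the other values, 1093 moved by less than the limit and 67 by more, all of the latter for a ratio of a list, family or gene with 1 tumour left out. No paired analysis was possible because the control samples form 1 group and share no replicate number with another. The depth sets a floor of 0.178 to 0.221 CPM per library, below which a level was not detectable. Differences between tumours have no replicate within a tumour. Reads shared between near-identical genes cannot be assigned, and the strand setting is not known.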
